A study of Saccharomyces cerevisiae with 15 samples.

Results

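Sense and antisense transcription were compared across the genome of wild-type budding yeast (*Saccharomyces cerevisiae*) growing in rich glucose medium. The 3 WT cultures were taken from a series of 15 strand-specific total RNA libraries. For each of them, the number of alignments on the coding (sense) strand of every annotated gene was joined, by systematic gene name, to the number on the opposite (antisense) strand. There were 5712 features with sense values and 5122 with antisense values. Of these, 5076 were in both tables, 636 were in the sense table alone and 46 in the antisense table alone.

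The WT strain was HTABWT, a MATa haploid that lacks both chromosomal copies of the histone H2A and H2B gene pairs (hta1-htb1Δ hta2-htb2Δ) and carries *HTA1-HTB1* on a centromeric *HIS3* plasmid, with a *his3* deletion, lys2-128δ and ura3-52. This background was shared by all strains of the series. The other 4 strains were used here to see whether the WT pattern recurs and where the ratio of the strands differs from WT. They were a *set1Δ* deletion, a *jhd2Δ* deletion, and 2 strains in which Flag-tagged *SET1* or *SET1-G990E* was integrated at *URA3* under the strong *ADH1* promoter. Set1 is the yeast histone H3 lysine 4 methyltransferase and Jhd2 the demethylase of the same residue. Each strain was grown as 3 cultures in YPAD, a yeast extract and peptone medium with dextrose and adenine, at 30 °C to mid-log phase. A strain of this kind is 1 genotype, and the 3 libraries measure the spread between its cultures.

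Antisense transcription yields RNA from the strand opposite a gene. In yeast such RNA can start, among other places, in the gene's own 3′ end or in a neighbour that runs through its terminator. Some antisense RNAs are known to hold their gene low: *RME2* does so at the meiotic gene *IME4* in haploid cells, and transcripts across *GAL10* and *PHO84* have been described in the same way. An antisense count in these tables is any alignment that overlaps the annotated gene by at least 1 base on the other strand, and is not by itself a defined transcript.

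The WT libraries held 7874153, 8679152 and 8561353 sense counts and 94812, 104229 and 102014 antisense counts, which came to between 1.19 and 1.20 antisense counts per 100 sense counts. The strain labels could be checked in part on marker genes. *STE2*, the α-factor receptor of MATa cells, had 5075, 5286 and 5261 sense counts, whereas *MF(ALPHA)1*, the α-factor gene of MATα cells, had 9, 7 and 12. Among other MATα genes, *MF(ALPHA)2* had 8, 7 and 8 sense counts, but *STE3* had 68, 92 and 92 and *SAG1* 293, 387 and 338. The MATa gene *MFA1* had 495, 435 and 636, and *MFA2*, *STE6*, *BAR1* and *AGA2* each had more in every library. *HTA1* had 4341, 4639 and 4442 sense counts, the deleted *HTA2* had 71, 80 and 68, and the deleted *HTB2* had 90, 96 and 94. The plasmid carries *HTA1*, so its counts cannot show whether the chromosomal copy is deleted. The deleted *HTA2* and *HTB2* were low beside *HTA1* but still had counts, and the source of these was not tested. Mating type read as labelled, except that *SAG1* and *STE3* were also read.

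Among the 5712 features with sense values, glycolysis, the translation apparatus and small nuclear and nucleolar RNAs led. The authors had listed apart another 9 features for very high counts, and these are not ranked here. The glycolysis genes *TDH3* and *FBA1* had no values on either strand. Levels within a strand are given as FPKM, the deposited fragments per kilobase of gene, scaled to the counts of that strand. *snR83* had 13625 ± 2065 FPKM (SD, n = 3, as for all means of WT levels), *CDC19*, the pyruvate kinase, 11710 ± 913, and *PDC1*, the main pyruvate decarboxylase, 11535 ± 1279. *CWP2*, a cell wall mannoprotein, had 11419 ± 1033 FPKM and *snR86* 9798 ± 997. The libraries of *snR83*, *CDC19*, *PDC1* and *CWP2* overlapped, as did those of *PDC1* and *snR86*, so the order of these levels was not resolved by 3 libraries. Of the 50 features with the highest sense FPKM, 29 were ribosomal protein genes and 6 were snRNA or snoRNA genes, and their median length was 476 bases against 1211 over all features.

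The most expressed features on the antisense strand were short for the most part. The highest antisense level was at *YDR524W-C* (chromosome IV, 1489403 to 1489492, + strand, sacCer3), an open reading frame of 90 bases with 5001, 5481 and 4776 antisense counts. Its antisense FPKM was 559224 ± 37528. The nearest opposite-strand feature was *YDR524C-B*, 105 bases away, which had 4264, 5980 and 6338 sense counts. *YLR264C-A* came next with 553, 595 and 562 antisense counts. *AUA1* followed, and its 968, 1061 and 1127 antisense counts lay over *WWM1*, which overlaps 58.6% of it on the opposite strand and had 1504, 1734 and 1779 sense counts. Of the 50 features with the highest antisense FPKM, 14 (all tested genes 1.46%) overlapped an annotated opposite-strand feature and another 21 (all tested genes 36.0%) lay within 250 bases of one, and their median length was 393 bases against 1290 over all features of that table. No feature was in the top 50 of both strands.

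**Figure D1:**
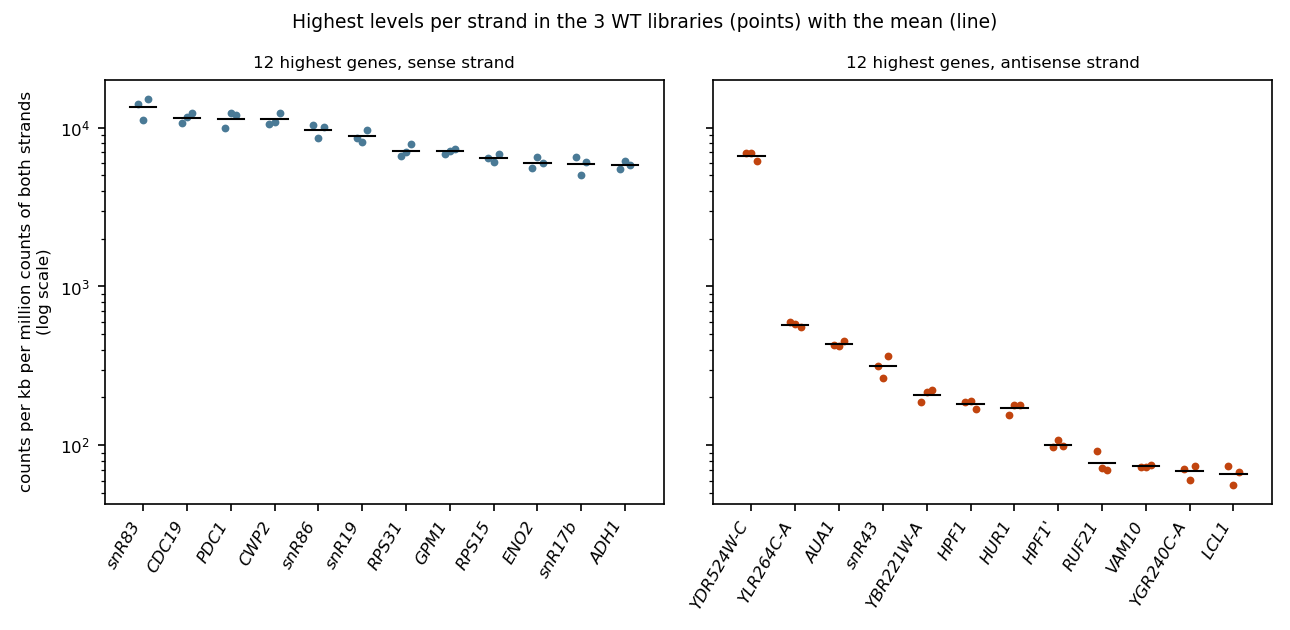
The 12 features with the highest mean WT FPKM on the sense strand and the 12 on the antisense strand (log axis, counts per kilobase and per 1000000 counts of both strands; points are the 3 WT libraries and lines their mean). On this common scale *YDR524W-C*, at 6677 ± 478, stands apart from the other antisense features, of which the next, *YLR264C-A*, is at 576.

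FPKM could not be compared between strands, because each strand was scaled to its own total and the sense totals were 82.5 to 83.3 times the antisense totals. On a common scale, counts per kilobase and per 1000000 counts of both strands together, the median level was 45.7 over the 5712 features with sense values and 0.695 over the 5122 with antisense values. Counts on the 2 strands of a gene come from the same library and the same length. They were therefore compared directly, with edgeR's quasi-likelihood test, the library as a block and the library size set to the total of both strands. Genes whose strands together averaged at least 10 counts per library were tested. Those with a ratio of at least 1.5-fold in either direction and p under 0.05, after Benjamini-Hochberg adjustment, were called.

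Sense transcription exceeded antisense at 4833 of 5055 tested genes (95.6%), antisense exceeded sense at 121 (2.39%), and 101 passed in neither direction. The median log2 ratio of antisense to sense was -6.09, that is 68.3-fold more sense than antisense. A gene had a median of 1.43 antisense counts per 100 sense counts, 14.0% of genes had at least 10, and 3.30% had at least 100. The antisense strand was sparsely covered: 2053 of the tested genes averaged at least 10 antisense counts per library and 122 at least 100, against 4997 and 4538 for sense. When each strand was instead scaled to its own total, the median log2 ratio moved by 6.37 to 0.28, and the split became 2073 genes with relatively more antisense and 1656 with relatively more sense, with all 121 genes still called. All ratios below compare alignments of the same library, with no such rescaling.

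**Figure D2:**
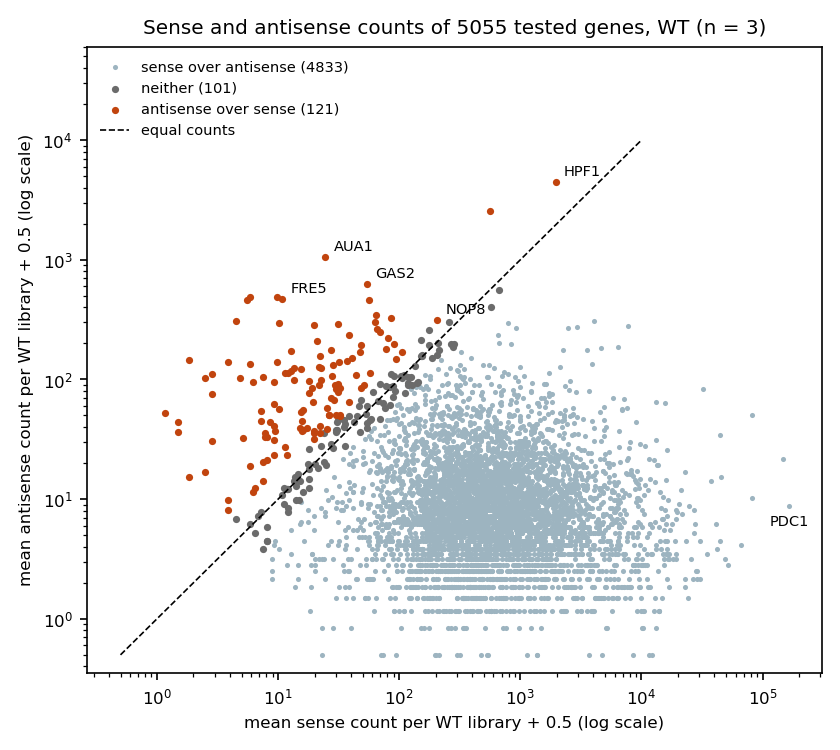
Mean WT antisense count against mean WT sense count for each of the 5055 tested genes (log axes, mean count of 3 WT libraries plus 0.5); orange points are genes called with antisense over sense, dark grey points genes called in neither direction and light points genes with sense over antisense. The 121 called genes lie above the line of equal counts, most of them at low sense counts, where the median was 17.3 against 525 over all tested genes.

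Set against their sense counts, which chose them, the genes with the highest sense counts had few antisense counts. The 100 genes with the highest mean sense count were taken from the 5076 with values on both strands. Over these 100, antisense counts per 100 sense counts ran from 0 to 0.486 with a median of 0.0237. *PDC1* had 134237, 182725 and 175253 sense counts and 7, 6 and 12 antisense counts, a mean of 8.33 against a median of 7.67 over all tested genes, so its antisense count as such was not low. *RPL16B*, a large ribosomal subunit protein gene, had 11191, 12498 and 12904 sense counts and 0 antisense counts in each library, so sense was at least 12198-fold higher when the 3 libraries were pooled and set against the 3 counts that a count of 0 allows, a bound that covers counting error only. Across the 5076 genes in both tables, log2 FPKM on the strands had a Pearson r of -0.168 and a Spearman rho of -0.134. This is a description across genes, which share the libraries and their depth and are not independent replicates. Over the 74 genes that overlap an opposite-strand feature, the Spearman rho was -0.669.

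The 121 genes with antisense over sense differed from the rest, as the way they were called favours, in both counts. Their median sense count was 17.3 (all tested genes 525) and their median antisense count 89.7 (all tested genes 7.67). Their ratios ran from 0.61 to 6.65 on the log2 scale with a median of 2.06, or 4.17-fold more antisense. The excess was at least 2-fold at 100 of them, 4-fold at 64 and 16-fold at 18. In 118 of the 121, every antisense count was above every sense count of the gene. The same was true of 131 of all tested genes, or 2.59%. Together the 121 genes held 22.3% of all antisense counts and 0.0649% of all sense counts. At the edge of the call, *NOP8* (log2 ratio 0.61, 215, 209 and 193 sense and 293, 298 and 353 antisense counts) was just inside, and *YEL067C* (0.56) and *YPT10* (0.55) were just outside.

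Because RNA was taken from whole cultures, a low sense count may come from few transcribing cells or from little RNA in each, and these cannot be told apart. For the same reason, the data do not say whether the sense and antisense RNA of a gene were in the same cells.

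The position of the genes was compared with the annotation. Of the 121, 75 (62.0%) had no annotated opposite-strand feature within 250 bases, close to the 62.5% of all tested genes. A further 30 (24.8%; all genes 36.0%) had one within 250 bases without overlap, and 16 (13.2%; all genes 1.46%) overlapped one. Seen from the other side, antisense exceeded sense at 16 of the 74 genes with an overlap (21.6%) and at 75 of the 3161 without a neighbour (2.37%), against 2.39% overall. In the shared stretch of an overlap the antisense reads of one gene are also sense reads of the other, and the sources cannot be told apart. At *SET6* and *IRC15* that stretch is only 2.14% and 1.8% of the gene. Genes within 20 kb of a chromosome end made up 9 of the 121 (7.44%), against 96 of all tested genes (1.90%).

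In genes with no opposite-strand neighbour within 250 bases, the 12 largest ratios ran from 3.43 to 5.49 on the log2 scale. *FRE5* (*YOR384W*, chromosome XV, 1061564 to 1063648, + strand), a putative ferric reductase, had 10, 14 and 7 sense counts and 403, 554 and 454 antisense counts. The 2 strands did not overlap, and antisense was 45.0-fold higher (log2 ratio 5.49 ± 0.18 SE, edgeR adjusted p = 1.3e-14). *MER1* (*YNL210W*, chromosome XIV, 250931 to 251743, + strand), a splicing activator that acts only in meiosis, had 2, 0 and 1 sense counts and 57, 36 and 37 antisense counts. With so few sense counts its ratio is loose: pooled over the libraries it was 43.3, with an exact 95% interval of 14.5 to 213 that covers counting error only.

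*HXT17* (*YNR072W*, chromosome XIV, 772657 to 774351, + strand), a hexose transporter, had 5, 4 and 7 sense counts and 117, 143 and 143 antisense counts. *SMA2*, needed to form the spore membrane, had 7, 6 and 4 sense and 92, 97 and 98 antisense counts. *GAS2* (*YLR343W*, chromosome XII, 816094 to 817761, + strand), a glucanosyltransferase of spore wall assembly, combined a fuller sense count of 47, 63 and 50 with 603, 606 and 666 antisense counts. In all 3 genes each antisense count lay well above each sense count, with log2 ratios of 4.62 ± 0.24, 4.05 ± 0.25 and 3.55 ± 0.14 (SE).

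*STL1*, a glycerol and proton symporter, had 5, 13 and 8 sense counts and 77, 103 and 103 antisense counts. *DAK2*, a dihydroxyacetone kinase, had 12, 13 and 12 sense and 174, 168 and 174 antisense counts. *AZR1*, a membrane transporter linked to azole resistance, had 19, 25 and 14 sense and 275, 280 and 307 antisense counts. The remaining 4 of the 12 largest ratios were at *ECM34*, *YFL040W*, *YPR027C* and *YFL051C*, with log2 ratios of 4.94, 4.52, 3.87 and 3.87. Just past the distance limit, *ACT1* lies tail to tail with *YFL040W*, 287 bases away, and had 16319, 22269 and 19147 sense counts. Whether reads of *ACT1* reach into *YFL040W* was not tested.

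**Figure D3:**
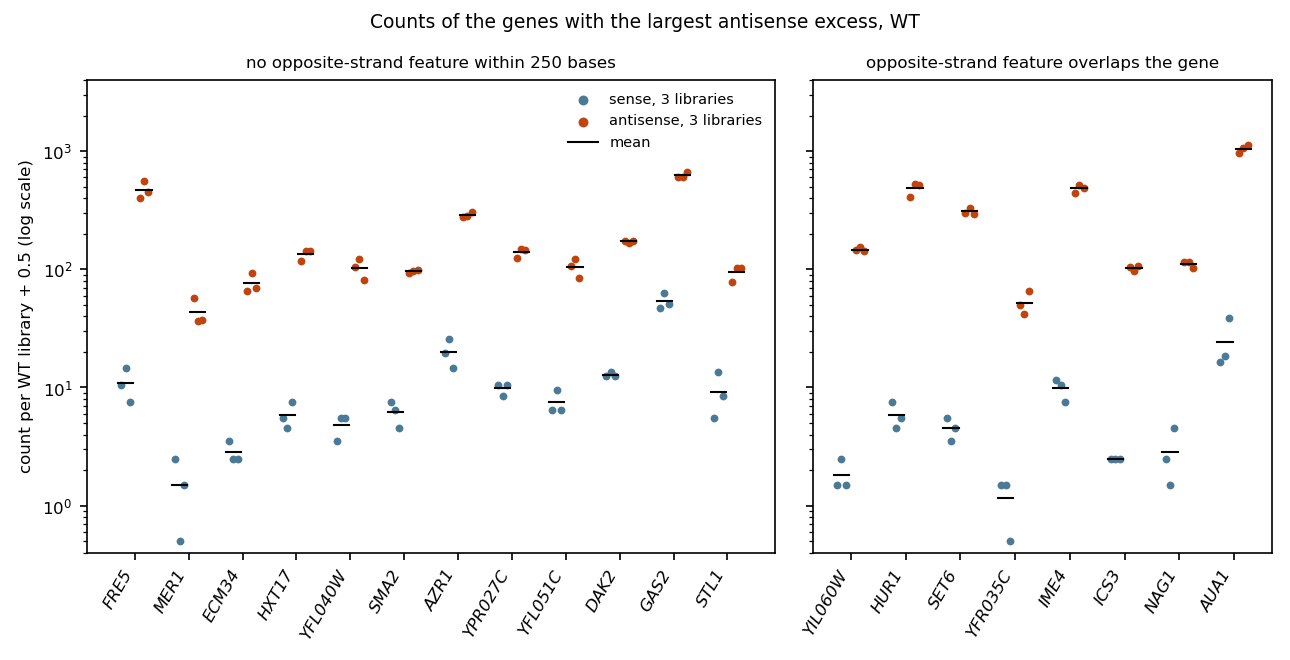
Sense and antisense counts in each of the 3 WT libraries at the genes with the largest excess of antisense (log axis, count plus 0.5; 1 point per library and strand, lines are means), for the 12 genes without an opposite-strand feature within 250 bases and the 8 with an overlapping one. At each of these 20 genes the antisense points lie above the sense points.

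Where an annotated opposite-strand feature overlapped, the log2 ratios of the 16 genes ran from 0.99 to 6.65, and reads of that feature in the shared stretch are also antisense counts of the gene. The 8 largest are given here. *YIL060W* had 1, 2 and 1 sense counts and 144, 153 and 142 antisense counts, with *YIL059C* over 63.7% of it. *HUR1* had 7, 4 and 5 sense and 409, 524 and 520 antisense counts. It shares 54.4% of its length with *PMR1*, the Golgi calcium pump, which had 2842, 3752 and 3470 sense counts. *NAG1* lies wholly inside *YGR031W*, and had 2, 1 and 4 sense and 115, 114 and 103 antisense counts beside 231, 242 and 223 sense counts of *YGR031W*. *YFR035C* had 1, 1 and 0 sense and 49, 41 and 65 antisense counts, a pooled ratio of 77.5 with an exact 95% interval of 21.1 to 646. *ICS3* had 2, 2 and 2 sense and 104, 97 and 106 antisense counts.

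*SET6* was different in kind, since only 2.14% of it is overlapped by *ATG29*. It had 5, 3 and 4 sense and 301, 328 and 296 antisense counts, and *ATG29*, an autophagy gene, had 236, 207 and 201 sense counts over its own length. *PWR1*, a noncoding RNA upstream of the flocculin gene *FLO11*, had 4, 4 and 2 sense counts and 140, 139 and 139 antisense counts. *ICR1*, the noncoding RNA that runs across *PWR1* on the other strand, had 367, 403 and 352 sense counts. At this pair of noncoding RNAs, which are known to be mutually exclusive regulators of *FLO11*, the WT libraries thus read almost only the *ICR1* strand, while *FLO11* itself had 32, 99 and 81 sense counts.

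*RUF21*, a noncoding RNA gene 105 bases from the β-tubulin gene *TUB2* on the other strand, had 3, 5 and 7 sense counts and 517, 444 and 429 antisense counts, and *TUB2* had 3255, 3854 and 3702 sense counts. With no opposite-strand feature within 250 bases, *HPF1* (chromosome XV, 28703 to 31606, - strand), a cell wall mannoprotein gene, had 1268, 2595 and 2010 sense counts and 4305, 4842 and 4277 antisense counts. It was thus strongly read on both strands, and antisense was higher in each library (log2 ratio 1.25 ± 0.16 SE). The related *HPF1'* (*YIL169C*) had 348, 762 and 582 sense and 2313, 2820 and 2554 antisense counts. The *HPF1* pair are near copies, and how the authors' counting divided their reads is uncertain.

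Genes of meiosis and sporulation are held low in haploid cells on glucose, and in a list of 48 tested members 13 (27.1%) had antisense over sense, 24 had sense over antisense and 11 passed in neither direction. The median log2 ratio over the 48 was -0.59, against -6.09 over all tested genes, of which 2.39% were called with antisense over sense. The members and lists were chosen with earlier results of these data known, so the counts describe the list and are not a test of it. Of the 13, 7 had no opposite-strand feature within 250 bases, 5 had one and 1 overlapped one.

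The overlapping one was *IME4* (*YGL192W*, chromosome VII, 142246 to 144048, + strand), the mRNA adenosine methyltransferase that promotes entry into meiosis. It had 11, 10 and 7 sense counts and 443, 520 and 489 antisense counts, 51.2-fold more antisense (log2 ratio 5.68 ± 0.19 SE, edgeR adjusted p = 1.0e-14). *RME2*, the annotated antisense RNA, covers 100% of *IME4*. The haploid libraries thus read this locus almost only on the *RME2* strand.

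Recombination genes followed. *REC114*, needed to form meiotic double-strand breaks, had 13, 13 and 13 sense and 122, 131 and 123 antisense counts. *DMC1*, the meiotic strand exchange recombinase, had 42, 57 and 54 sense and 87, 95 and 88 antisense counts, a smaller excess (log2 ratio 0.82) that still separated the strands in all libraries. *ISC10*, 206 bases from *DMC1* on the other strand, had 199, 205 and 186 sense counts. *REC102* had a log2 ratio of 0.92. *ZIP2*, of the synaptonemal complex, had 74, 53 and 55 sense and 69, 82 and 81 antisense counts. Its strands overlapped and it was not called (log2 ratio 0.35, edgeR adjusted p = 0.0694).

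Among regulators and spore genes, *SMK1*, the kinase of spore wall assembly, had 13, 11 and 11 sense and 104, 110 and 124 antisense counts. On the other strand, *YPR053C* lies 36 bases from *SMK1*. *SPO75* had 22, 21 and 18 sense and 206, 221 and 195 antisense counts, with *MMM1* 73 bases away on the other strand. *NDT80*, the transcription factor of the middle meiotic genes, lies 33 bases from *YNCH0010C* on the other strand. It had 83, 60 and 90 sense and 180, 173 and 188 antisense counts (log2 ratio 1.22 ± 0.14 SE, edgeR adjusted p = 2.9e-07). The pattern was not shared by all: *IME2*, the kinase that acts early in meiosis, had 194, 200 and 190 sense counts and 4, 7 and 6 antisense counts. *RIM4* was even on the strands, with 199, 215 and 209 sense and 188, 216 and 197 antisense counts.

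**Figure D4:**
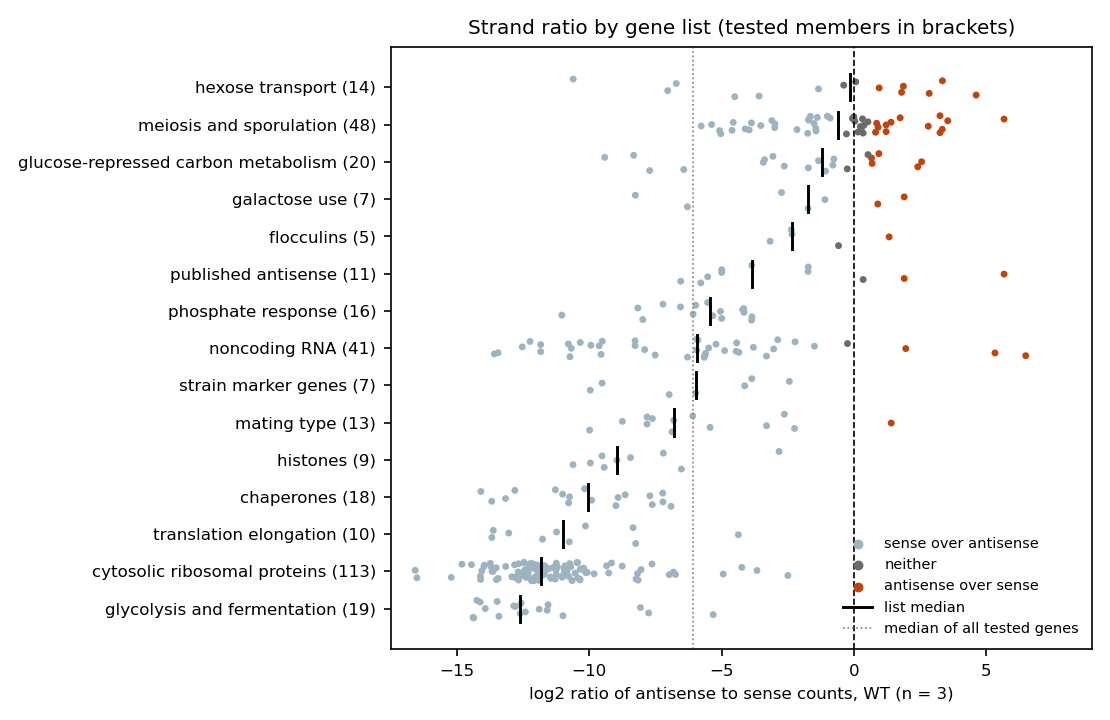
Log2 ratio of antisense to sense in WT for the tested members of each gene list (1 point per gene; bars are list medians, orange points are genes called with antisense over sense, and the dotted line is the median of all tested genes). The medians of meiosis, hexose transport and glucose-repressed genes are -0.59, -0.15 and -1.20, with members on both sides of equal counts, while those of glycolysis and ribosomal protein genes are -12.61 and -11.84.

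Many early meiotic genes carry the URS1 element, GGCGGC, at which Ume6 represses them in glucose. The sites are shown at 6 genes with antisense over sense: the 4 of the list that hold one, and *MER1* and *HXT17*, which are not in it. In the 300 bases before the start codon, the 6 letters were found on either strand at 4 of 13 meiotic genes with antisense over sense (30.8%), at 11 of the 35 other tested meiotic genes (31.4%), and at 247 of 5013 open reading frames (4.93%). Over all 118 open reading frames called with antisense over sense, 15 held the letters (12.7%). TATAAA, searched in the same way, was found at 47.7% of all open reading frames and at 58.5% of those called. Each line below reads 5′ to 3′ on the gene's strand, from the RefSeq R64 genome (sacCer3), with the letters in capitals, and a site on the opposite strand reads GCCGCC.
MER1 (chrXIV:250809-250838): gatcgcattttaGCCGCCgacagtgttaat
REC114 (chrXIII:536103-536132): cgttacaaggtgGGCGGCtaacttataaaa
DMC1 (chrV:548271-548300): gaccggaaaataGCCGCCcaaggataaact
SMK1 (chrXVI:666117-666146): gcgaaaaaaataGGCGGCaaaaggcgggtg
IME4 (chrVII:142002-142031): tatgcgtctttaGGCGGCttttggcgtaca
HXT17 (chrXIV:772382-772411): tattcaaaagaaGGCGGCaagcagtatcaa

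The sites stood 104 bases before the start codon in *MER1*, 86 in *REC114*, 132 in *DMC1*, 145 in *SMK1*, 226 in *IME4* and 257 in *HXT17*. A match of 6 letters is a description of the window only.

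In diploid cells the a1-α2 repressor is known to bind downstream of *IME4* and to silence *RME2*, which haploid cells, lacking one of its subunits, cannot do. A search for the a1-α2 operator, chosen after the values of *IME4* were seen, was run over the 300 bases after each stop codon, on both strands. At least 13 of the 14 specified positions matched at 2 of 5013 open reading frames, *IME4* and *PDR8* (0.0399%). At least 12 matched at 116 (2.31%), and at 4 of the 118 called open reading frames (3.39%). The *IME4* match began 156 bases after the stop codon and is shown, with the operator span in capitals, because few genes match as well. The *ZIP2* match, 95 bases after the stop codon, has 12 positions, as at the 116 genes above, and is shown for comparison. Both lines read on the gene's strand. The *IME4* match is on that strand, whereas the *ZIP2* match is on the opposite strand and matches as the reverse complement of its line.
IME4 (chrVII:144200-144228): gagtcCGTGTATTTTTTTACATCAactgg
ZIP2 (chrVII:35303-35331): aaggaAAATGTATTTATTAACATGaacta

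Hexose transport genes, a list that also holds the glucose sensors *SNF3* and *RGT2*, were divided between the strands. Of 14 tested members, 6 (42.9%) had antisense over sense. Another 6, among them *SNF3* and *RGT2*, had sense over antisense, and 2 (*HXT9* and *HXT10*) passed in neither direction. The shares of all tested genes were 2.39% for antisense and 95.6% for sense. *HXT3*, a low-affinity glucose transporter, had 6944, 8808 and 6852 sense and 62, 53 and 56 antisense counts. *HXT4* had 5914, 7636 and 5701 sense and 3, 5 and 4 antisense counts. *HXT1*, also of low affinity, had 514, 691 and 505 sense and 23, 26 and 26 antisense counts.

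Beside *HXT17*, another 5 transporters had more antisense. *HXT13* had 6, 16 and 11 sense and 94, 126 and 118 antisense counts. *HXT8* had 22, 18 and 25 sense and 138, 173 and 160 antisense counts. *HXT5*, the transporter of slowly growing and starved cells, had 76, 69 and 60 sense and 236, 256 and 260 antisense counts. *HXT11* had a log2 ratio of 1.80. *HXT14* was called with 12, 6 and 3 sense and 15, 9 and 17 antisense counts, but lost the call by DESeq2 (adjusted p = 0.10), limma-voom and glmTreat, and without WT replicate 2 (log2 ratio 1.09) or 3 (log2 ratio 0.41). *HXT13* and *HXT17* belong to a group of near-identical genes, so the division of reads among them is uncertain. *HXT6* and *HXT7* were in the sense table alone.

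Among 20 tested genes repressed by glucose, 5 (25%) had antisense over sense, 13 had sense over antisense, and *SFC1* and *POT1* passed in neither direction, beside the same 2.39% and 95.6%. *POX1*, the acyl-CoA oxidase that opens fatty acid breakdown, had 29, 21 and 14 sense and 118, 144 and 117 antisense counts. *ADY2*, an acetate transporter, had 8, 12 and 4 sense and 44, 34 and 52 antisense counts. *FBP1*, a gluconeogenic phosphatase, had 26, 28 and 24 sense and 47, 46 and 58 antisense counts. The excess was smaller at *JEN1*, the lactate transporter (97, 122 and 96 sense, 162, 177 and 169 antisense counts), and at *CTA1*, the peroxisomal catalase (97, 93 and 91 sense, 137, 161 and 149 antisense counts). Both were lost when the test asked for more than 1.5-fold (glmTreat adjusted p = 0.08 and 0.11).

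Of 7 galactose genes, 2 had antisense over sense, against 2.39% of all tested genes. *GAL10* (*YBR019C*, chromosome II, 276253 to 278352, - strand), the galactose epimerase, had 32, 41 and 48 sense and 149, 153 and 151 antisense counts (log2 ratio 1.90 ± 0.16 SE). RefSeq annotates an antisense RNA, *YNCB0008W*, over 73.7% of it. *GAL1*, the galactokinase that diverges from *GAL10*, had the reverse, with 57, 53 and 60 sense and 18, 16 and 17 antisense counts. *GAL2*, the galactose permease, had 18, 23 and 24 sense and 39, 39 and 44 antisense counts. Since *GAL10* lies on the - strand and *GAL1* on the + strand, more reads were on the + strand of the chromosome at both genes.

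*GAL10* and *ADY2* also held the 6 letters GGCGGC, 225 and 238 bases before the start codon. Whether these letters are a URS1 element, or part of another site, was not tested. Both genes lie on the - strand. They are shown as examples from outside the meiosis list, out of the 15 called open reading frames with the letters.
GAL10 (chrII:278566-278595): tgtcgcccgctcGGCGGCttctaatccgta
ADY2 (chrIII:133351-133380): tatcgcgggttgGGCGGCtatggcgccttc

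Genes with antisense RNAs described in other work were, like most genes, mostly read on the sense strand here. Of 11 tested, 2 (18.2%) had antisense over sense, 8 had sense over antisense and *ZIP2* passed in neither direction. Over all tested genes, 2.39% had antisense over sense and 95.6% the reverse. *PHO84*, the phosphate transporter, had 3555, 3943 and 3512 sense and 82, 69 and 88 antisense counts, and *PHO5*, the secreted acid phosphatase, 1250, 1449 and 1344 sense and 35, 51 and 41 antisense counts. All 16 tested genes of the phosphate pathway had sense over antisense, near the 95.6% of all tested genes.

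Of 5 flocculin genes 1 was called, beside 2.39% of all tested genes: *FLO9* had 25, 31 and 37 sense and 82, 84 and 69 antisense counts. *FLO1* passed in neither direction. Of 13 mating genes 1 was called (7.69%, all tested genes 2.39%). It was *MF(ALPHA)2*, an α-factor gene of the other mating type, with 8, 7 and 8 sense and 25, 23 and 14 antisense counts. *LIF1*, 206 bases away on the other strand, had 210, 216 and 196 sense counts. Of 41 noncoding RNA genes, 3 (7.32%) had antisense over sense and 37 the reverse, against 2.39% and 95.6% of all tested genes. The snoRNA *snR43* passed in neither direction, with 562, 660 and 761 sense and 527, 489 and 665 antisense counts.

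In 5 further lists, no tested member had antisense over sense. All 113 tested ribosomal protein genes (median log2 ratio -11.84), 19 glycolysis genes (-12.61), 18 chaperone genes (-10.04), 10 translation elongation genes (-10.99) and 9 histone genes (-8.95) had sense over antisense, as did 95.6% of all tested genes. A further 25 ribosomal protein genes were in the sense table alone.

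The 46 features in the antisense table alone had been listed by the authors as under 10 sense counts and have no sense value per library here. They were left out of the test above. With the missing strand of features in 1 table set to 0, 144 of 5653 features had antisense over sense and 5408 the reverse. The largest were *YDR524W-C* and *YLR264C-A*, described above. *HRA1*, a noncoding RNA that *DRS2* overlaps over 69.7% of its length, had 225, 248 and 247 antisense counts. *BUD25*, opposite *HEM14*, had 235, 206 and 227. *VAM10*, inside *VPS5*, had 201, 221 and 223. *MEI5*, a meiotic recombination gene, and *HXT15* were also in this group.

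The same comparison in the other strains gave similar numbers. On its own 3 libraries, antisense exceeded sense at 99 genes in *set1Δ* (1.96% of those tested), 118 in *jhd2Δ* (2.34%), 128 under *SET1* overexpression (2.54%) and 118 under *SET1-G990E* overexpression (2.33%). Of the 121 WT genes, 94 of 119 tested were called again in *set1Δ*, 107 of 120 in *jhd2Δ*, 113 of 120 under *SET1* and 103 of 120 under *SET1-G990E*. All 4 other strains called 88 of the 121, and 92 had more antisense than sense in each of the 12 other libraries. The median log2 ratio over the WT genes was 2.06 in WT, 1.52 in *set1Δ*, 1.96 in *jhd2Δ*, 2.04 under *SET1* and 1.91 under *SET1-G990E* overexpression.

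**Figure D5:**
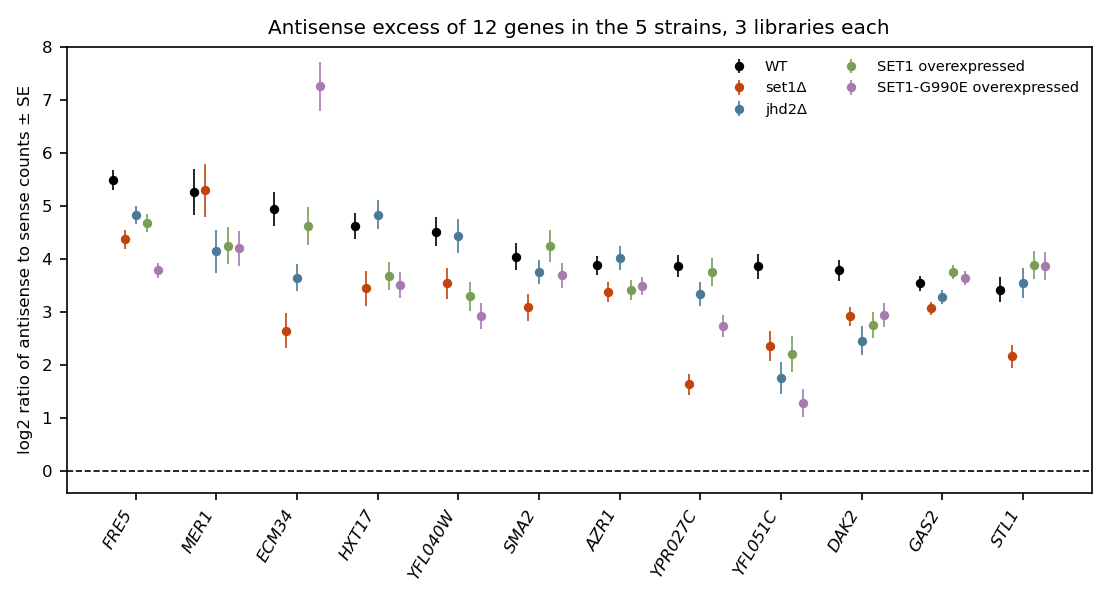
Log2 ratio of antisense to sense counts (y axis) in the 5 strains for the 12 genes with the largest WT ratios and no opposite-strand feature within 250 bases (points are estimates from 3 libraries, bars ± SE). All estimates are above equal counts, and *ECM34* under *SET1-G990E* rests on 0, 0 and 1 sense counts.

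Whether the ratio itself differed from WT was tested with a strand-by-strain term in edgeR over 5056 genes. The genes were chosen on the WT libraries, which are shared by the 4 comparisons, so a lower ratio elsewhere is favoured by the choice and the counts are given as a description. In *set1Δ* the ratio was lower at 35 of 120 WT genes and higher at 2, while over all genes it was lower at 423 (8.37%) and higher at 111 (2.20%). The *set1Δ* libraries also had fewer antisense counts per 100 sense counts in all, 1.03 to 1.06 against 1.19 to 1.20 in WT, and the median change over all genes was -0.31 on the log2 scale against -0.53 over the WT genes. The part of that shift in the 35 was not tested. In *jhd2Δ* the ratio was lower at 12 and higher at 5, with 4.69% and 2.85% over all genes. Under *SET1* overexpression it was lower at 5 and higher at 1, with 1.80% and 1.70%. Under *SET1-G990E* it was lower at 21 and higher at 1, with 3.34% and 5.16%. Leaving out 1 WT library moved several of these small counts: the 5 higher in *jhd2Δ* became 3 without replicate 1 and 2 without replicate 2, the 5 lower under *SET1* became 3 without replicate 1 or 3, and the 2 higher in *set1Δ* became 1 without replicate 2 or 3. The 1 higher under *SET1* became 0 without replicate 1, and the 1 higher under *SET1-G990E* became 0 without replicate 1 or 2 and 2 without replicate 3. Without WT replicate 2, the 21 lower under *SET1-G990E* became 13 and the 261 higher and 169 lower genes over all became 172 and 93.

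Single genes showed where the ratio moved. *OPT2*, an oligopeptide transporter family gene with no close neighbour, had 85, 79 and 78 sense and 198, 231 and 235 antisense counts in WT, and 234, 227 and 230 sense and 94, 95 and 90 antisense counts in *set1Δ*. The strand with more RNA was reversed, with both strands separated in each strain (change of log2 ratio -2.76 ± 0.18 SE, edgeR adjusted p = 3.3e-40). *POX1* in *set1Δ* had 34, 42 and 45 sense and 39, 51 and 45 antisense counts, so its strands overlapped there. *NOP8*, a ribosome assembly factor whose neighbour *RIB4* lies 42 bases away, had 312, 289 and 329 sense and 122, 108 and 92 antisense counts under *SET1* overexpression, below its WT antisense counts of 293, 298 and 353.

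In *jhd2Δ* the ratio at *HPF1* was higher by 2.16 ± 0.17 (SE), through sense counts of 229, 388 and 321 against 1268, 2595 and 2010 in WT. Its antisense counts there were 2793, 3199 and 3878, lower than in WT but by much less. *FRE5* kept its excess of antisense under *SET1-G990E*, with 22, 32 and 30 sense and 385, 375 and 408 antisense counts, a ratio lower than in WT by 1.70 on the log2 scale.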

How the data were processed

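Total RNA, depleted of rRNA, was sequenced as strand-specific dUTP libraries. The authors aligned reads with Novoalign 2.8.1 to sacCer3 and deposited raw counts per gene and strand (USeq, overlap of at least 1 base) and FPKM scaled to each strand's own total. The authors listed apart features with fewer than 10 counts, and 9 under a heading of more than 50000, though genes above that, such as *PDC1*, stay in the sense table; those lists and the authors' columns of fold changes and p-values were not used. Depth is given in the report.

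Counts were tested with edgeR 4.0.16 in R 4.3.3, checked on simulated data; alternatives used limma 3.58.1 and DESeq2 1.42.0. Sense and antisense columns are paired because they come from the same library; deviations of the columns of a library had correlations of 0.083, 0.022 and -0.006 over 261 genes. Of 5758 features, 5734 matched RefSeq R64 by position, which holds no UTRs for most genes. Members and lists were chosen with earlier results of these data known. Named genes were the 12 highest per strand, the 12 largest ratios without and 8 with an overlapping neighbour, up to 8 per list, markers and the 5 largest changes per strain; others, such as *RUF21*, *PWR1*, *ICR1* and *VAM10*, were chosen after their values were seen.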

Additional observations from a re-analysis of the deposited data

Results flagged for a closer look

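For the following genes of the WT antisense group, the log2 ratio of antisense to sense differed between another strain and WT by the test of the difference itself (edgeR, strand-by-strain term). In *set1Δ* the change was -2.76 at *OPT2*, -2.42 at *YNL018C*, -2.40 at *POX1*, -2.28 at *ECM34* and -2.23 at *YPR027C*. In *jhd2Δ* it was -2.62 at *SET6*, 2.45 at *HPF1'*, 2.16 at *HPF1*, -2.11 at *YFL051C* and -1.42 at *YKL071W*. Under *SET1* overexpression it was -2.14 at *NOP8*, -1.66 at *YFL051C*, -1.32 at *LCL1*, -1.21 at *HPF1'* and 0.756 at *CTA1*. Under *SET1-G990E* overexpression it was -3.09 at *SET6*, -2.57 at *YFL051C*, -2.39 at *NOP8*, -1.70 at *FRE5* and -1.64 at *YKL071W*. The *HPF1* changes in *jhd2Δ* went with lower sense counts. At *SET6* both strands differed, with 19, 25 and 29 sense and 224, 202 and 216 antisense counts under *SET1-G990E*. The comparisons share the WT libraries, and the part of the choice of genes in WT was not tested.

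Outside the tested comparison, 30 of the features in the antisense table alone had more than 3 antisense counts in every WT library.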

How the results depend on the processing

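Of 711 values of the 55 named genes with antisense over sense under the alternatives, 701 stayed past the threshold, 10 did not (*CTA1*, *HXT14*, *JEN1* and *NOP8*) and 0 reversed. The count of 121 became 109 by DESeq2, 118 by limma-voom and 107 by glmTreat; 124 without the count filter; and 118, 119 and 115 without WT replicate 1, 2 and 3, with 109 of the 121 kept in all. It was 121 without the replicate block, with 4832 genes in the other direction. Scaling moved it most, by construction: 2073 genes with relatively more antisense and 1656 with more sense under each strand's own total, and 1729 and 2061 under TMM. With an antisense mean of at least 10, sense exceeded antisense at 1847 genes. With no opposite-strand feature within 250, 500 or 1000 bases, the counts were 75, 65 and 43 for antisense and 3022, 1880 and 1249 for sense, with fewer genes tested. For the change of ratio under *SET1-G990E*, leaving out each WT library gave 172 to 220 genes with a higher and 93 to 149 with a lower ratio, against 261 and 169 with all 3. By counts in place of FPKM, 23 of the 50 highest sense and 24 of the 50 highest antisense features were shared. Low sense counts limit the precision of the largest ratios.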
